A study of Mus musculus with 19 samples.

Results

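Gene expression in the mouse hindgut epithelium was compared between embryonic day 16 (E16) and embryonic day 14 (E14) across all genes of a read-count table. The comparison used 4 of the table's 15 RNA-seq libraries, 2 from E16 and 2 from E14, and 4 further hindgut libraries (2 each from E12 and E11) entered the same fit to share one estimate of spread. All 8 came from wild-type CD1 embryos, with no transgene and no treatment named for them. Each was made from hindgut cells freed with trypsin and sorted by flow cytometry for Epcam, a surface protein of epithelial cells. The libraries are called biological replicates in the labels, and whether a library holds 1 embryo or several is not stated. The p-values therefore measure the spread between these samples. The wider study deals with the factor Ascl2, colonic stem cells and the regeneration of crypts, and the embryonic ages follow transcripts through the development of the colonic epithelium.

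The hindgut is the part of the endodermal gut tube that forms the colon and rectum. Its epithelium is first a tube of dividing, largely unspecialised cells, which send signals such as Hedgehog proteins to the surrounding mesenchyme and receive BMP, Wnt and FGF signals in return. Later in gestation the cells take on their adult forms: absorptive colonocytes with a brush border, and the secretory goblet cells, which make mucus, and enteroendocrine cells, which make hormones. Factors of the Cdx and Hnf4 families set intestinal identity, Atoh1 opens the secretory programme, and Notch signalling restrains it.

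Of 24062 genes in the table, 16481 had enough counts to be tested. Levels are given in CPM, counts scaled by library size and TMM factors, and they are not corrected for gene length, so they are compared between ages and not between genes. The E16 libraries held 16861928 and 13826958 gene counts, and the E14 libraries 22605165 and 23685904. A count of 3 over both libraries of an age corresponds to 0.102 CPM at E16 and 0.0637 CPM at E14. The transcripts Xist, made in female cells, and Ddx3y, from the Y chromosome, were counted in each of the 4 libraries.

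The E16 libraries stood apart in the levels of markers of cell types that the Epcam sort is meant to remove. Epcam itself had 1176 and 1273 CPM at E16, against 1428 and 1393 CPM at E14 (log2 fold change -0.20 ± 0.12, adjusted p = 0.218). Of the 10 epithelial identity genes, 4 rose and 2 fell, with a median log2 fold change of 0.21. Among all tested genes 20.6% rose and 19% fell. In what follows, a value with ± in parentheses is a log2 fold change of E16 over E14 with its SE. The keratins Krt8 and Krt18 of simple epithelia rose (1.08 ± 0.091 and 1.46 ± 0.07), while the cell adhesion protein Cdh1 and the splicing factor Esrp1 fell (-0.79 ± 0.083 and -0.93 ± 0.11).

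Connective tissue, muscle, blood and nerve markers were higher at E16. Of 12 fibroblast markers, 10 rose and 1, Postn, fell; their summed level was 8474 and 7149 CPM at E16, against 633 and 629 CPM at E14. The collagen gene Col3a1 had 3965 and 3205 CPM at E16, against 61.5 and 70.5 CPM at E14 (log2 fold change 5.76 ± 0.86, adjusted p = 0.00181). All 7 smooth muscle markers rose, and their sum reached 2602 and 2791 CPM at E16, against 57.9 and 49.7 CPM at E14. All 11 immune cell markers rose as well, with sums of 1816 and 1961 CPM at E16 and 76.1 and 80.8 CPM at E14. In each of these 3 lists both E16 sums lay far above both E14 sums, as the plot of marker lists by library shows. Every member of the muscle and immune lists was counted in all 4 libraries, and 7 immune markers were called higher without any 1 of them.

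Of 12 enteric neural markers 7 rose, among them Ret and Tubb3, and 5 did not pass the test. Their sum was 587 and 538 CPM at E16, against 297 and 280.1 CPM at E14, a narrower gap than for muscle or immune genes. Of 9 endothelial markers 5 rose and none fell; 1 or 2 were called higher without any 1 of the 4 libraries, and they summed to 164 and 146 CPM at E16 and 18 and 19 CPM at E14. Among 6 red cell markers that could be tested 5 rose, or 3 without either E14 library, and Alas2, the haem synthesis enzyme of red cells, had 1441 and 1524 CPM at E16, against 1.92 and 1.82 CPM at E14 (log2 fold change 9.63 ± 0.64, adjusted p = 6.06e-05). The adult globin genes Hba-a1, Hba-a2, Hbb-bs and Hbb-bt were at 0 in all 4 libraries, and reads that aligned to more than 1 place, which the table does not assign to genes, made up 34.9% and 38.3% at E16, against 28.4% and 28.7% at E14. In such bulk samples fewer cells of a type and less RNA per cell cannot be told apart. The part of these other cells in the results that follow was not tested, and their levels are repeated where a gene group is known from them.

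**Figure D1:**
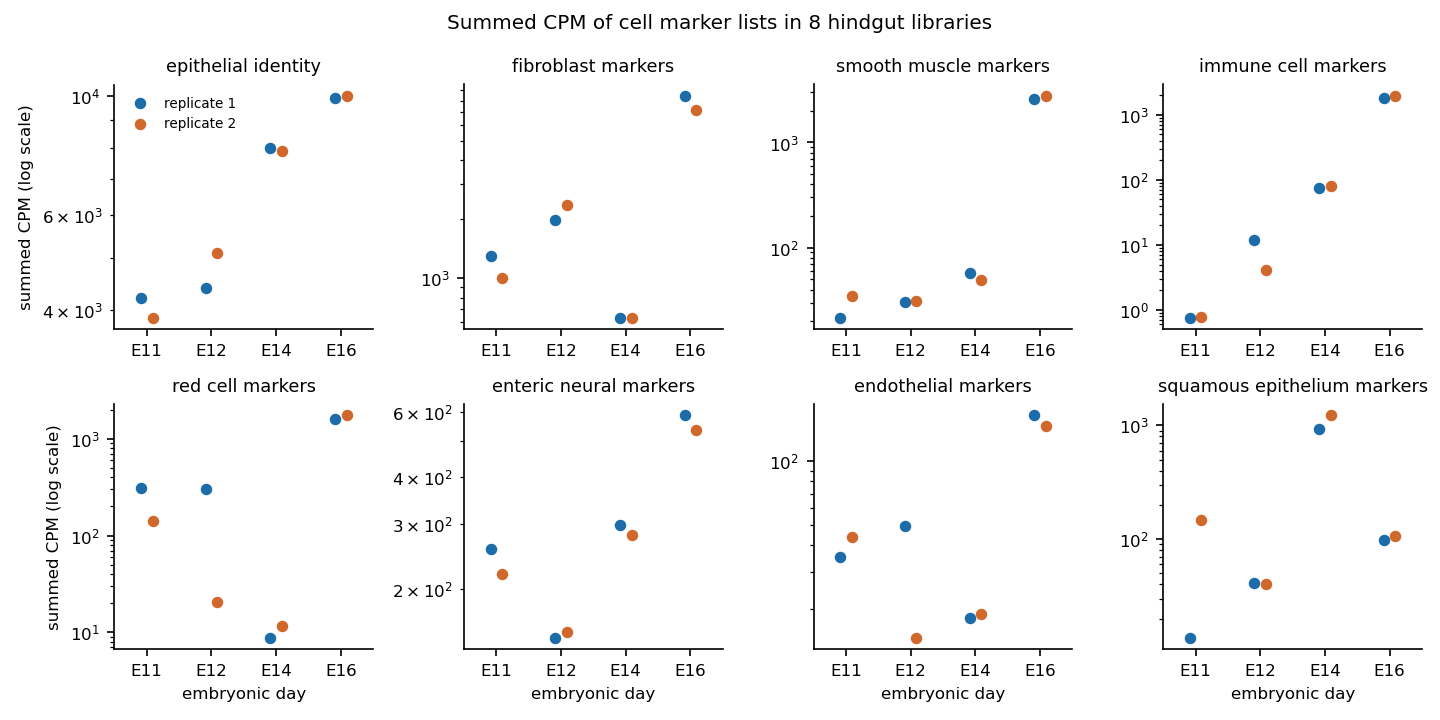
Summed CPM (log scale) of 8 marker lists in the 8 hindgut libraries, by embryonic day, with 1 point per library. At E16 the fibroblast, smooth muscle, immune, red cell, enteric neural and endothelial sums lay above all E14 points, and the squamous sum lay below them (98.2 and 107 CPM at E16, 934 and 1223 CPM at E14).

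Between E14 and E16, 6530 genes were called at an adjusted p below 0.05, 39.6% of those tested. Of these, 3394 (20.6% of tested genes) rose and 3136 (19%) fell. The median log2 fold change over all tested genes was 0.0026. The rises were larger than the falls: 2544 genes (15.4%) rose at least 2-fold and 1290 (7.83%) fell at least 2-fold, and 1455 against 177 changed at least 8-fold. In all 6530 the E16 libraries did not overlap the E14 libraries. The same share over all tested genes was not counted, so this adds no support to the calls. Leaving out 1 library of these ages lowered the count to between 3468 (without E14 replicate 1) and 3979 (without E16 replicate 2), with 3569 without E14 replicate 2 and 3919 without E16 replicate 1. Where the call of a named gene was lost without 1 of these 4 libraries, this is given with it.

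**Figure D2:**
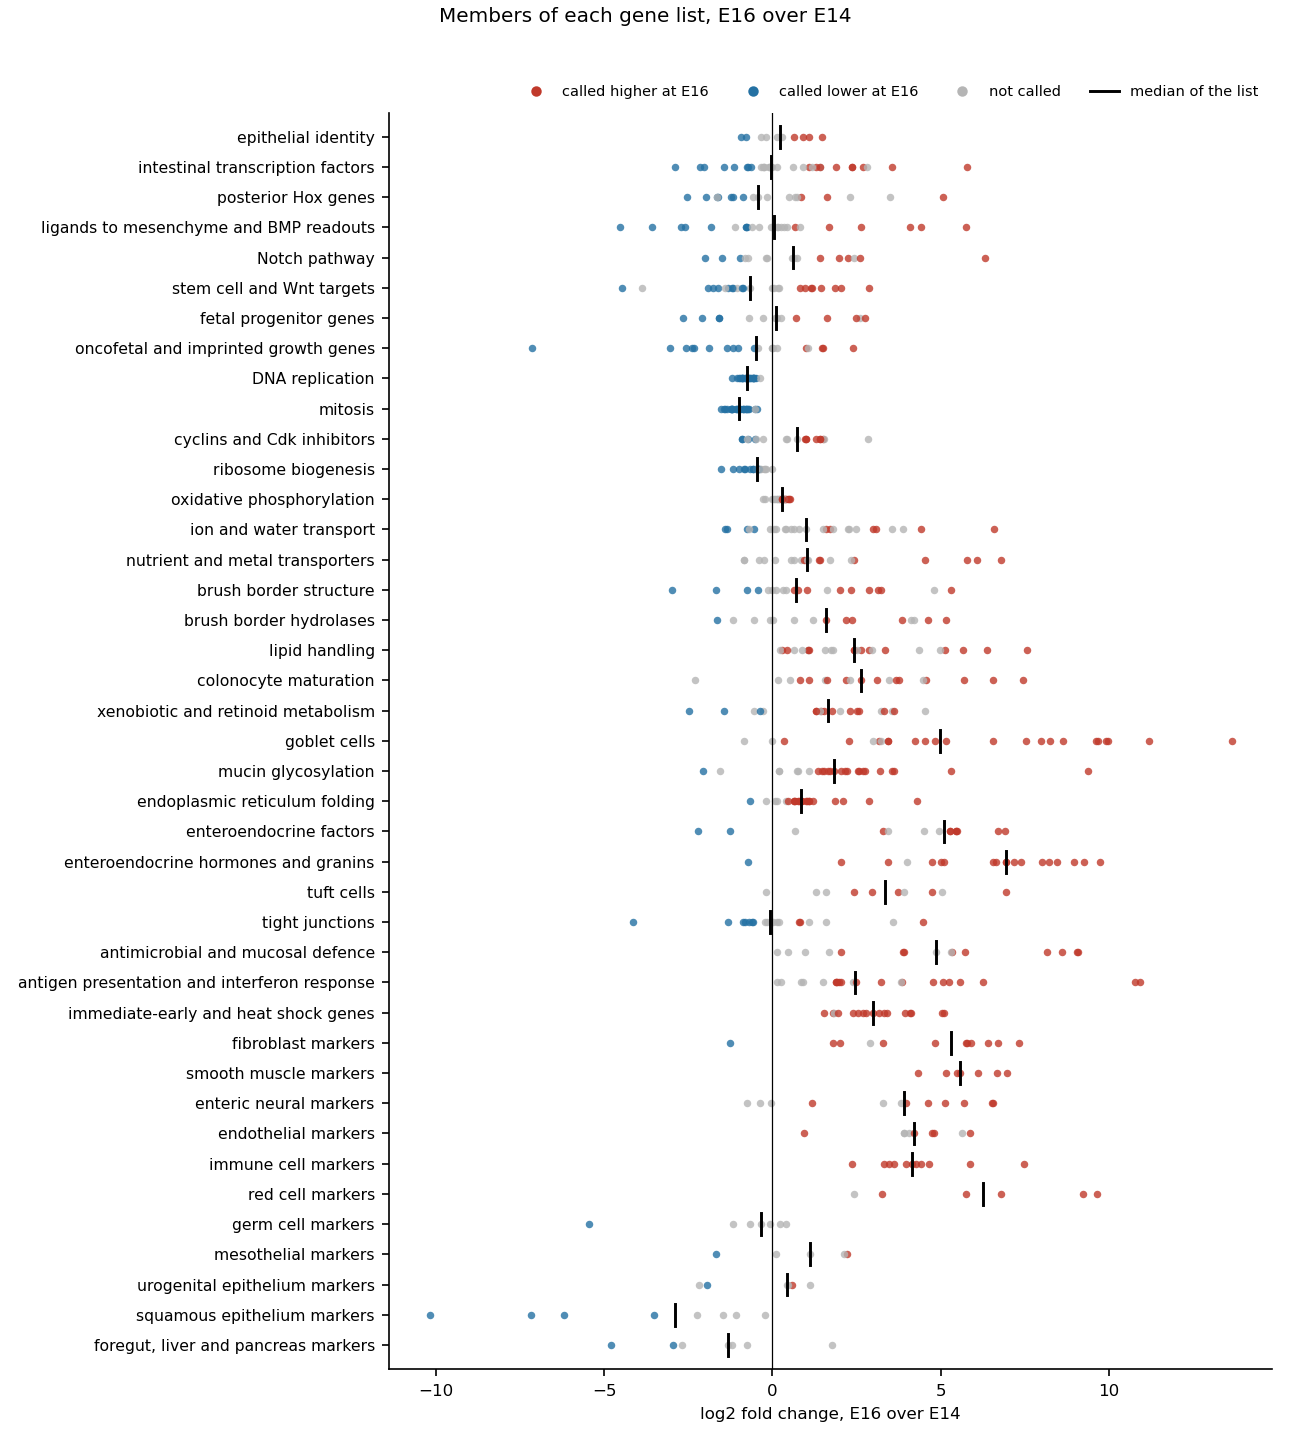
Log2 fold change of E16 over E14 (x axis) for each tested member of 41 gene lists (rows), 1 point per gene, with a bar at the list's median. Genes with 3 or fewer counts over 1 age are drawn at the fold set by their counts. Points of the goblet, enteroendocrine and other-cell lists lie mostly to the right, and those of the replication, mitosis and squamous lists to the left.

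The 12 largest rises among genes at 10 CPM or more had no counts at E14, apart from Retnlb with 1 count. The neutrophil granule genes Ngp, S100a8 and S100a9 were at 0 in both E14 libraries. S100a9 had 86.5 and 104 CPM at E16, so that it rose at least 1482-fold at a floor of 3 counts over both E14 libraries, and Ngp and S100a8 rose at least 1760.1-fold and at least 1275-fold. Cpa3 (a mast cell protease) and Hdc (the histamine-making enzyme) rose at least 731-fold and at least 717-fold, and the lymphoid genes Ltb and Cd7 rose at least 1270.0-fold and at least 976-fold. H2-Aa, a chain of the MHC class II molecule, rose at least 1747-fold, and Cytip, a protein of blood cells, at least 1074-fold. Gm1123, a predicted gene, had 212 and 252 CPM at E16 and 0 at E14. Most of these genes are known from blood cells, and the immune markers given above moved with them. The others include Retnlb, a goblet cell peptide, and Insl5, a colonic hormone, which are taken up below.

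The 12 largest falls held genes of stratified and early epithelium. Trp63, the master factor of squamous epithelia (chromosome 16, 25683763 to 25892088 in GRCm38.p6), was at 0 in both E16 libraries, against 90.6 and 144 CPM at E14, at least 1163-fold lower. The zinc finger factor Sall4, a gene of early embryonic and germ cells (chromosome 2, 168748332 to 168767201), had 0.801 and 0.376 CPM at E16, against 88 and 85.8 CPM at E14 (log2 fold change -7.15 ± 0.22, adjusted p = 4.42e-06). Also in this group were the basal keratins Krt5 (-7.18 ± 2.45, not called without any 1 of the 4 libraries, adjusted p = 0.101 to 0.215) and Krt15 (-6.19 ± 0.67), Lypd2 (-6.50 ± 1.18), the cartilage collagen Col2a1 (-5.97 ± 0.77), the protease Adamts18 (-5.52 ± 0.95) and the factor Nfe2l3 (-5.52 ± 0.57). The factor Tfap2c (-5.43 ± 1.21, not called without E16 replicate 1 or E16 replicate 2, adjusted p = 0.054 to 0.0744), the amino acid transporter Slc7a3 (-5.36 ± 0.94), the sodium pump regulator Fxyd4 (-5.21 ± 0.78) and the transcript 5730457N03Rik (-6.30 ± 0.64) completed it. In each of the 12 both E16 libraries lay below both E14 libraries, which the rule that chose them required.

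Goblet cell genes rose broadly. Of 24 tested members 20 rose, none fell and 4 (Gfi1, Ang4, Muc4 and Muc1) did not pass the test; the median log2 fold change was 4.98, against 0.0026 over all genes. Muc2, the gel-forming mucin of the colon, had 148 and 146 CPM at E16, against 0.0871 and 0.0415 CPM at E14, a ratio of 2306-fold (95% counting interval 788 to 11184) from 3 counts at E14. Tff3, a trefoil peptide secreted with mucus (chromosome 17, 31125306 to 31129611), had 2075 and 2727 CPM at E16, against 12.8 and 13 CPM at E14 (log2 fold change 7.54 ± 0.22, adjusted p = 3.46e-06). Both E16 libraries stood far above both E14 libraries for each gene. Gfi1 was called with only the 4 libraries of E14 and E16 (adjusted p = 7.88e-05).

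Other products of the mucus layer followed. Fcgbp, a mucus-binding protein, had 2252 and 1716 CPM at E16, against 1.61 and 3.19 CPM at E14 (log2 fold change 9.68 ± 0.40, adjusted p = 1.33e-05). Retnlb had 248 and 301 CPM at E16, against 0.0435 and 0 CPM at E14, with 1 count over both E14 libraries, and Zg16, a lectin of the mucus, had 50.8 and 72.5 CPM at E16, against 0.0435 and 0.083 CPM at E14, a rise not called without E14 replicate 1 or E14 replicate 2 (adjusted p = 0.066 to 0.0709). Clca1, a mucus-processing protease listed under its older symbol Clca3, differed in that it was already present at E14: it had 2884 and 2782 CPM at E16, against 325 and 302 CPM at E14 (log2 fold change 3.18 ± 0.24, adjusted p = 9.65e-05). At E11 it had 372 and 241 CPM and at E12 519 and 754 CPM.

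The factors of the lineage rose with the products. Atoh1, which opens the secretory programme, had 184 and 155 CPM at E16, against 9.36 and 8.54 CPM at E14 (log2 fold change 4.24 ± 0.44, adjusted p = 0.000644) and was at or near 0 at E11 (0 and 0 CPM) and E12 (0.399 and 0 CPM). Spdef, which drives goblet maturation, had 233 and 239.8 CPM at E16, against 11.7 and 8.79 CPM at E14 (log2 fold change 4.53 ± 0.26, adjusted p = 3.39e-05). Creb3l1 and Creb3l4, membrane-bound factors of secretory cells, rose by 2.29 and 3.42 on the log2 scale, and the disulphide isomerase Agr2, which folds mucin, rose by 6.54.

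**Figure D3:**
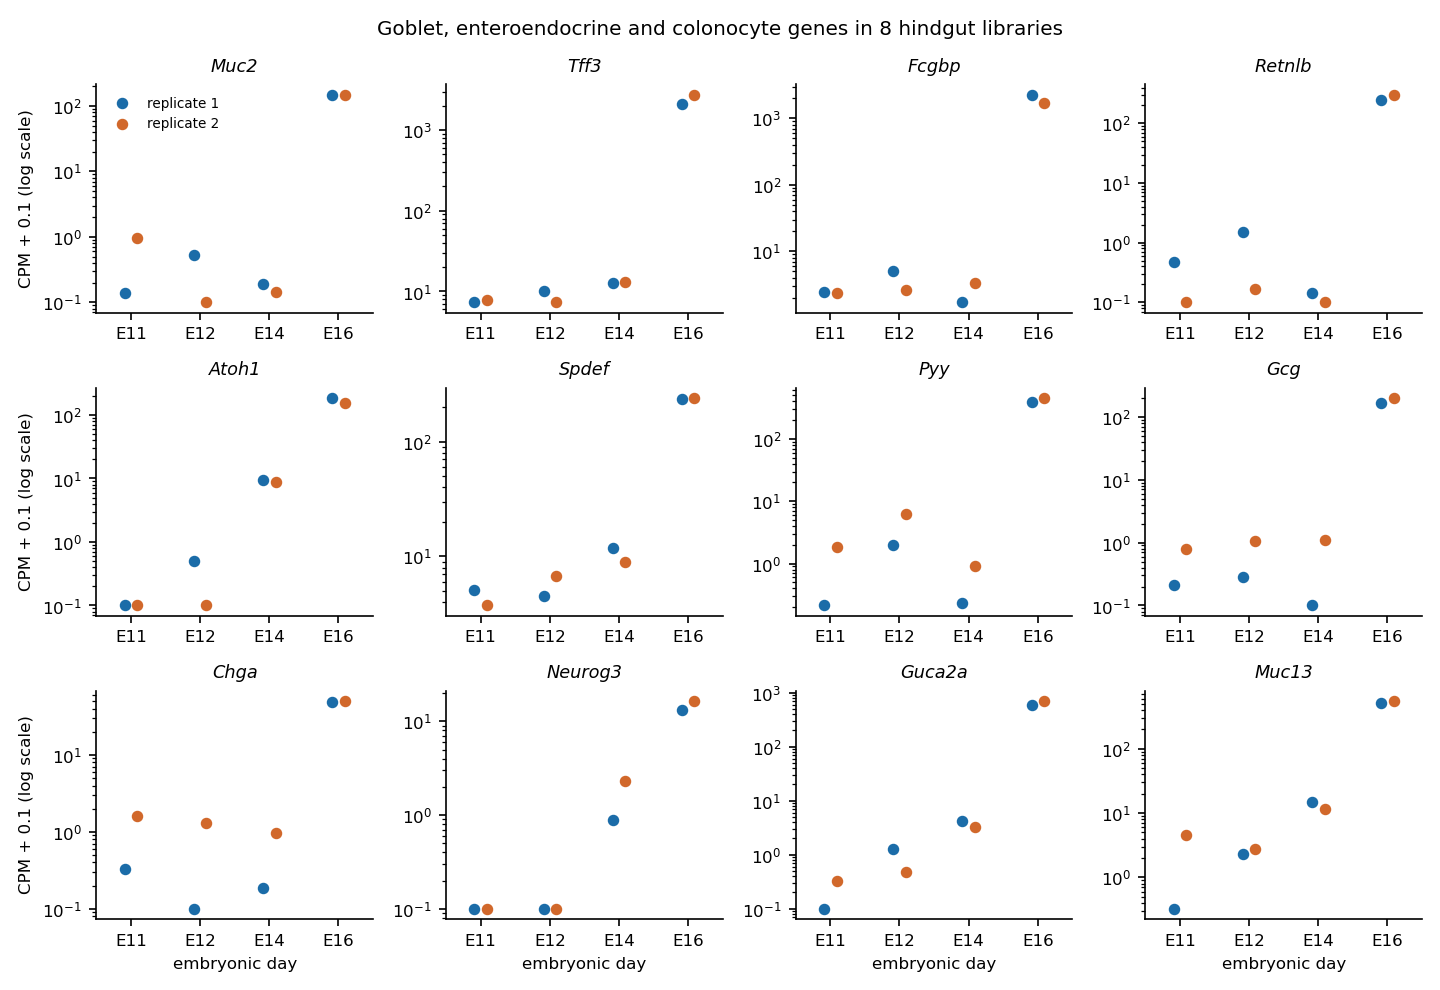
CPM + 0.1 (log scale) of 12 genes of goblet cells, enteroendocrine cells and colonocytes by embryonic day, with 1 point per library. In every panel both E16 points lie above all points of the earlier ages; for Muc2 they stand at 148 and 146 CPM, against 0.0871 and 0.0415 CPM at E14.

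The enzymes that build mucin sugars rose together with the mucus genes. Of 25 tested members 18 rose, 1 (Chst5, not called without any 1 of the 4 libraries, adjusted p = 0.0612 to 0.116) fell and 6 did not pass the test, with a median log2 fold change of 1.82. Galnt12, one of the enzymes that place the first sugar on mucin, had 381 and 346 CPM at E16, against 31.2 and 30.7 CPM at E14 (log2 fold change 3.56 ± 0.24, adjusted p = 6.54e-05). Gcnt3, which branches mucin chains, had 229 and 251 CPM at E16, against 7.27 and 5.02 CPM at E14, and the sulphotransferase Chst4 had 73.9 and 71.9 CPM at E16, against 0 and 0.207 CPM at E14. Both genes were low in each E14 library and high in each E16 library, but neither was called by DESeq2 (adjusted p = 0.0939 for Gcnt3 and 0.0747 for Chst4). Gcnt3 was also not called without E14 replicate 2 (adjusted p = 0.0522). St6gal1, which adds sialic acid, rose by 2.57 on the log2 scale and B4galnt1 by 3.20.

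Endoplasmic reticulum genes, which serve secretion, changed by smaller steps. Of 24 members 18 rose, 1 (Hyou1, not called without any 1 of the 4 libraries but E16 replicate 1, adjusted p = 0.0653 to 0.167) fell and 5 did not pass the test; the median log2 fold change was 0.84. Xbp1, a factor of secretory cells, had 614 and 616 CPM at E16, against 144 and 144 CPM at E14 (log2 fold change 2.09 ± 0.20, adjusted p = 0.000262). Ern2, the stress sensor of mucus-making cells, had 274 and 254 CPM at E16, against 12.9 and 14.3 CPM at E14 (log2 fold change 4.28 ± 0.43, adjusted p = 0.000596), while its widely used relative Ern1 had 16.1 and 12.6 CPM at E16, against 7.1 and 8.83 CPM at E14 (log2 fold change 0.85 ± 0.64, adjusted p = 0.323). The chaperones Hspa5 and Pdia6 rose by 1.09 and 1.00 on the log2 scale, and Hsp90b1 had 1449 and 1573 CPM at E16, against 1363 and 1392 CPM at E14 (adjusted p = 0.413).

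Enteroendocrine hormones had the highest median among the lists of epithelial genes. Of 20 tested hormone and granule genes 17 rose, 1 (Ddc) fell and 2 (Sst and Pcsk2) did not pass the test. The fall of Ddc was not called without any 1 of the 4 libraries (adjusted p = 0.0558 to 0.206) or with RLE scaling (adjusted p = 0.0576). The median log2 fold change was 6.79, or 6.93 with genes of 3 or fewer counts at the fold set by their counts. Peptide YY (Pyy, chromosome 11, 102106676 to 102107832), a hormone of colonic L cells, had 391 and 452 CPM at E16, against 0.131 and 0.83 CPM at E14 (log2 fold change 9.74 ± 0.91, adjusted p = 0.000248). Glucagon (Gcg), the precursor of GLP-1, had 163 and 198 CPM at E16, against 0 and 0.995 CPM at E14 (log2 fold change 8.46 ± 0.92, adjusted p = 0.00047). Neither hormone reached 1 CPM in an E14 library.

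Further hormones of the colon appeared with them. Insl5 had 35.8 and 41.7 CPM at E16 and 0 at E14, at least 603-fold higher, and Nts, neurotensin, had 55.8 and 53.8 CPM at E16, against 0.0435 and 0.166 CPM at E14 (log2 fold change 8.95 ± 0.54, adjusted p = 8.49e-05). Ghrl (ghrelin) and Sct (secretin) rose by 7.19 and 5.09 on the log2 scale. Chga, a granule protein that neurons also make, had 48.7 and 49.7 CPM at E16, against 0.0871 and 0.871 CPM at E14 (log2 fold change 6.65 ± 1.48, adjusted p = 0.01), and Chga and Scg3 were not called without any 1 of the 4 libraries but E14 replicate 2 (adjusted p = 0.0508 to 0.0715). Tac1, Scg2, Scg3 and Scg5 are likewise shared with neurons, and enteric neural markers were 587 and 538 CPM in sum at E16. Sst (somatostatin) and Gip had 3 or fewer counts over both libraries of each age.

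Of 14 enteroendocrine factors 8 rose, 2 (Isl1 and Mnx1) fell and 4 did not pass the test, with a median log2 fold change of 5.10. Neurog3, which starts the lineage, had 13.1 and 16.3 CPM at E16, against 0.784 and 2.2 CPM at E14 (log2 fold change 3.29 ± 0.74, adjusted p = 0.0175), and Neurod1, which acts after it, had 17.5 and 17.5 CPM at E16, against 0.0435 and 0.747 CPM at E14 (log2 fold change 5.44 ± 1.08, adjusted p = 0.00829). Without 1 of the 4 libraries 3 to 7 factors were called higher, with 7 only without E14 replicate 2, and 0 to 2 lower. Neurog3 was not called without any 1 of the 4 libraries but E14 replicate 2 (adjusted p = 0.0819 to 0.114). Fev rose by 6.90 and Insm1 by 5.27 on the log2 scale. Isl1 had 19.9 and 14.1 CPM at E16, against 44.7 and 36.8 CPM at E14 (log2 fold change -1.26 ± 0.32, adjusted p = 0.0182), after 184 and 299.5 CPM at E11. Its fall was not called without E14 replicate 1 or E16 replicate 2 (adjusted p = 0.0856 to 0.116), nor that of Mnx1 without E14 replicate 2 or E16 replicate 2 (adjusted p = 0.0873 to 0.1). Among 10 tested tuft cell genes 5 rose and none fell, with 3 called higher without E14 replicate 1 or E16 replicate 1. Pou2f3, the factor that defines these cells, had 0.801 and 0 CPM at E16, against 0.61 and 0.332 CPM at E14 (adjusted p = 0.954). Il25 was at 0 in all 4 libraries and Trpm5 had 13.7 and 4.66 CPM at E16, against 0.348 and 0.207 CPM at E14 (adjusted p = 0.0646). Trpm5 was called higher with DESeq2 (adjusted p = 0.00198) and with only the 4 libraries of E14 and E16 (0.000655). Those that rose include Dclk1, Ptgs1, Ltc4s and Alox5ap, the last of which blood cells also express, and the immune sum was 1816 and 1961 CPM at E16. Its part in these rises was not tested. Ltc4s was not called without any 1 of the 4 libraries (adjusted p = 0.0977 to 0.175), nor Dclk1 without E14 replicate 1 (adjusted p = 0.052).

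Genes of mature colonocytes rose without exception among those called. Of 19 tested members 12 rose, none fell and 7 did not pass the test, and 7 or 8 were called higher without any 1 of the 4 libraries; the median log2 fold change was 2.62. Guca2a, the peptide guanylin that sets salt and water secretion (chromosome 4, 119637732 to 119639465), had 581 and 688 CPM at E16, against 4.14 and 3.11 CPM at E14 (log2 fold change 7.45 ± 0.39, adjusted p = 2.76e-05). Lypd8, which keeps bacteria off the colon surface, had 375 and 421 CPM at E16, against 18 and 15.7 CPM at E14 (log2 fold change 4.56 ± 0.54, adjusted p = 0.000646). The keratin Krt20 of surface cells rose by 2.62 on the log2 scale. The guanylin receptor Gucy2c, present earlier, had 357 and 285 CPM at E16, against 191 and 171 CPM at E14 (log2 fold change 0.83 ± 0.26, adjusted p = 0.0379), a rise not called without any 1 of the 4 libraries (adjusted p = 0.0694 to 0.19).

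Brush border genes rose more often than they fell. Of 20 tested structural members 9 rose, 4 fell and 7 did not pass the test. Over all tested genes 20.6% rose and 19% fell, so the share that fell was close to background. Ceacam1, an adhesion protein of the apical surface, had 665 and 637 CPM at E16, against 70.8 and 67.4 CPM at E14 (log2 fold change 3.24 ± 0.16, adjusted p = 2.29e-05), and Muc13, a membrane mucin, had 509.9 and 544 CPM at E16, against 14.9 and 11.5 CPM at E14 (log2 fold change 5.32 ± 0.67, adjusted p = 0.000866). The microvillus linkers Cdhr2 and Cdhr5 and the motor Myo1a rose by 2.32, 2.87 and 3.13 on the log2 scale. The members that fell were Vill, a villin relative (-2.98 ± 0.14), the membrane linker Ezr (-0.75 ± 0.13), the scaffold Pdzk1 (-1.69 ± 0.26) and the actin bundler Espn (-0.43 ± 0.097). Vill had 12.8 and 11 CPM at E16, against 91.1 and 96.2 CPM at E14. Espn was not called without E14 replicate 2 or E16 replicate 2 (adjusted p = 0.061 to 0.0808).

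Among 15 tested brush border hydrolases 6 rose, 1 (Mme, not called without E14 replicate 1, adjusted p = 0.0556) fell and 8 did not pass the test (3 higher without any 1 of the 4 libraries), with a median log2 fold change of 1.58. Enpep, an aminopeptidase (chromosome 3, 129269177 to 129332749), had 223 and 212 CPM at E16, against 8.01 and 9.5 CPM at E14 (log2 fold change 4.63 ± 0.20, adjusted p = 1.66e-05), and the folate hydrolase relative Naaladl1 had 134 and 131 CPM at E16, against 3.66 and 3.77 CPM at E14 (log2 fold change 5.15 ± 0.55, adjusted p = 0.000431). Alpi, the intestinal alkaline phosphatase, had 37.2 and 34.1 CPM at E16, against 2.39 and 2.57 CPM at E14 (log2 fold change 3.84 ± 0.97, adjusted p = 0.0209), a rise not called without any 1 of the 4 libraries (adjusted p = 0.09 to 0.122). Dpp4, by contrast, had 190.1 and 189 CPM at E16, against 209 and 192 CPM at E14 (adjusted p = 0.643), and Sis, the sucrase of the small intestine, 2.96 and 5.42 CPM at E16, against 0.392 and 0.083 CPM at E14 (adjusted p = 0.0709, but 0.00763 with DESeq2).

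Lipid handling genes showed rises only among those called. Of 24 tested members 13 rose, none fell and 11 did not pass the test, with a median log2 fold change of 2.43. Fabp2, the intestinal fatty acid binding protein, had 47.6 and 52.4 CPM at E16, against 1.22 and 1.66 CPM at E14 (log2 fold change 5.11 ± 0.47, adjusted p = 0.000237), and Apoa4 had 90.3 and 104 CPM at E16, against 0.653 and 0.373 CPM at E14 (log2 fold change 7.55 ± 1.19, adjusted p = 0.00233). Mttp, which loads lipoproteins, had 87.6 and 101 CPM at E16, against 17.3 and 17.9 CPM at E14 (log2 fold change 2.42 ± 0.23, adjusted p = 0.000281). Apoa1 rose by 2.43 on the log2 scale, and it had 171 and 214 CPM at E16, against 36.4 and 34.8 CPM at E14. Each of the 24 fitted fold changes was positive. Without any 1 of the 4 libraries 8 or 9 members were called higher.

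Of 21 nutrient and metal transporters 9 rose and none fell, among them the zinc importer Slc39a4 (1.37 ± 0.24), the amino acid carrier subunits Slc3a1 (4.54 ± 1.06) and Slc3a2 (0.93 ± 0.15) and the iron exporter Slc40a1 (0.99 ± 0.13). The bile acid carrier Slc10a2 had 4.07 and 4.66 CPM at E16 and 0 at E14, at least 68-fold higher, though not called without E16 replicate 1 or E16 replicate 2 (adjusted p = 0.0884 to 0.0936). The rise of Slc3a1 was not called without any 1 of the 4 libraries (adjusted p = 0.0544 to 0.0856). Without any 1 of the 4 libraries 3 or 4 of them were called higher. Of 28 ion and water transport genes 6 rose, 4 fell and 18 did not pass the test, set against the 20.6% and 19% of all tested genes that rose and fell. Slc26a3, the chloride exchanger of mature colonocytes, had 6.41 and 1.2 CPM at E16, against 0.0871 and 0 CPM at E14, a ratio of 95.7-fold (95% counting interval 25.9 to 799) that rested on 2 counts at E14, with the E16 libraries far apart. It was not called without any 1 of the 4 libraries (adjusted p = 0.0786 to 0.325) or by DESeq2 (adjusted p = 0.249). Aqp8, a water channel of mature colonocytes, had 1.36 and 1.28 CPM at E16, against 0.131 and 0.083 CPM at E14 (adjusted p = 0.171). The channels Cftr and Ano1 fell (-1.42 ± 0.35 and -1.34 ± 0.16), as did the lactate carrier Slc16a1 (-0.76 ± 0.16). Cftr was not called without any 1 of the 4 libraries but E14 replicate 2 (adjusted p = 0.0744 to 0.0857), nor Slc16a1 without E14 replicate 1 or E16 replicate 1 (adjusted p = 0.0596 to 0.0624). Without 1 of the 4 libraries 1 or 2 of these genes were called higher, and 1 (E14 replicate 1 or E16 replicate 1), 2 (E16 replicate 2) or 4 (E14 replicate 2) lower.

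Xenobiotic and retinoid genes were called higher for 10 of 20 tested members and lower for 3. Over all tested genes 20.6% rose and 19% fell, so the share called lower was below background. Aldh1a1, which makes retinoic acid, had 55.8 and 75.1 CPM at E16, against 9.1 and 13.6 CPM at E14 (log2 fold change 2.52 ± 0.26, adjusted p = 0.000375), after 27.3 and 27.3 CPM at E11. The glutathione transferases parted, with Gstm1 higher (1.29 ± 0.17) and Gsta4 lower (-1.44 ± 0.11). Without any 1 of the 4 libraries 4 or 5 members were called higher and 1 lower.

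The 250 bases before the annotated start of 4 of these genes are shown because the letters they hold differ. They come from the RefSeq promoter table of GRCm38.p6. Guca2a and Enpep had the smallest p-values of the colonocyte and hydrolase lists among called genes with a single entry, and Slc3a1 and Alpi were added after it was seen that they hold the HNF4 letters. Capitals mark matches on either strand to CAAAGTCCA (an HNF4 site), TATAAA (the TATA box) or TTTATG (a CDX site).
Guca2a (chr4:119637482-119637731, plus strand): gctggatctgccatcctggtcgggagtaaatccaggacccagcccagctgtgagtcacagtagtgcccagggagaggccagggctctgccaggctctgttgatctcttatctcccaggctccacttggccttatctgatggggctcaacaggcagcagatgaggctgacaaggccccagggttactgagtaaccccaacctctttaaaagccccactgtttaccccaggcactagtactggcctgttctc
Enpep (chr3:129332750-129332999, minus strand): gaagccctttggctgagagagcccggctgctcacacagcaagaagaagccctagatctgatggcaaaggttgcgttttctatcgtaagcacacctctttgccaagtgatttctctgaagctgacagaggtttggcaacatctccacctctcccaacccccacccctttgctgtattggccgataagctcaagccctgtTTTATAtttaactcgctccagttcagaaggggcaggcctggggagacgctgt
Slc3a1 (chr17:85028097-85028346, plus strand): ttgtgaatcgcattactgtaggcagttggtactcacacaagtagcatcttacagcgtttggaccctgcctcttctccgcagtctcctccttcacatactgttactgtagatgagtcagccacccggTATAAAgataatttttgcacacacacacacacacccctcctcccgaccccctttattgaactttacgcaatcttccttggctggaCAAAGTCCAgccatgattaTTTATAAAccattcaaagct
Alpi (chr1:87101607-87101856, minus strand): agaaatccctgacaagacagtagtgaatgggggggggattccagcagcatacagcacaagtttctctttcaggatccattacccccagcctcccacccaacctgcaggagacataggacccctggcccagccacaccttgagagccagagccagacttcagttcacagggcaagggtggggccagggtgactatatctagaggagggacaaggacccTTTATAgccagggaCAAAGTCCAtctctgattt
In Slc3a1 and Alpi the HNF4 letters begin 39 and 19 bases before the start. Guca2a holds none of the 3 motifs. Of 65 absorptive-list genes called higher, 41 had a single promoter entry. The HNF4 letters stood in 2 of these 41 (4.88%), against 90 of 22862 promoters of the same length (0.394%). These 2 genes, Slc3a1 and Alpi, were not called without any 1 of the 4 libraries (adjusted p = 0.0544 to 0.122). The TATA letters stood in 8 (19.5%), against 13.6% of all promoters, and the CDX letters in 5 (12.2%), against 11.5%. These matches describe the letters in this window only.

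The transcription factors of intestinal identity did not move as a group. Of 32 tested members 9 rose, 8 fell and 15 did not pass the test, with a median log2 fold change of -0.034, and 5 to 7 were called higher without any 1 of the 4 libraries. These shares were not far from the 20.6% and 19% of all tested genes that rose and fell. Cdx2 had 107 and 133 CPM at E16, against 197 and 106 CPM at E14, and both E16 values lay between the E14 values (adjusted p = 0.426). Its relative Cdx1, in contrast, had 518 and 451 CPM at E16, against 137 and 126 CPM at E14 (log2 fold change 1.89 ± 0.23, adjusted p = 0.000783). Hnf4a had 318 and 278 CPM at E16, against 367 and 338 CPM at E14 (adjusted p = 0.491) and Hnf4g had 72.1 and 78.3 CPM at E16, against 30.1 and 26.5 CPM at E14 (log2 fold change 1.41 ± 0.69, adjusted p = 0.14), which did not pass the test despite separate ranges. Hnf4g was called with only the 4 libraries of E14 and E16 (adjusted p = 0.000101) and without either E11 library (0.00475 and 0.00447).

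Several other factors did change. Cebpb, a factor also strong in myeloid cells, had 467 and 407 CPM at E16, against 37.2 and 37.7 CPM at E14 (log2 fold change 3.54 ± 0.13, adjusted p = 9.72e-06). Klf4 and Elf3, factors of differentiating epithelium, rose by 1.29 and 1.10 on the log2 scale. Foxa2, an early endoderm factor, had 13.1 and 9.71 CPM at E16, against 83.4 and 85.5 CPM at E14 (log2 fold change -2.88 ± 0.20, adjusted p = 7.31e-05). The epithelial factor Grhl2 fell (-1.16 ± 0.12).

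Of 19 posterior Hox genes 7 fell, 3 rose and 9 did not pass the test. Over all tested genes 19% fell and 20.6% rose, so the share that rose was below background. Without 1 of the 4 libraries 6 were called lower, and 1 (either E14 library), 2 (E16 replicate 1) or 0 (E16 replicate 2) higher. The fallers were Hoxa9, Hoxa10, Hoxa13, Hoxb13, Hoxd10, Hoxd11 and Hoxd13, which pattern the hind end of the embryo. Hoxa13 had 4.25 and 5.04 CPM at E16, against 28 and 25.4 CPM at E14 (log2 fold change -2.52 ± 0.31, adjusted p = 0.000755), and Hoxb13 had 73.1 and 78.2 CPM at E16, against 297 and 296 CPM at E14 (log2 fold change -1.97 ± 0.62, adjusted p = 0.0388), not called without any 1 of the 4 libraries (adjusted p = 0.113 to 0.165) or by DESeq2 (0.0597). Both of them had their highest levels of the 4 ages at E14. The risers were Hoxb6, Hoxb7 and Hoxc8, which the mesenchyme also expresses, and the fibroblast sum was at least 7149 CPM at E16. Hoxb7 was not called without any 1 of the 4 libraries (adjusted p = 0.0526 to 0.262), with library size only (0.0601) or with epithelial scaling (0.057). Hoxb6 was not called without E14 replicate 2 or E16 replicate 2 (adjusted p = 0.0709 to 0.0907), nor Hoxc8 without any 1 of the 4 libraries but E14 replicate 2 (adjusted p = 0.0927 to 0.12).

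Signals from the epithelium fell in several cases. Shh, the early Hedgehog ligand of the gut (chromosome 5, 28456840 to 28467101), had 20 and 25.9 CPM at E16, against 287 and 261 CPM at E14 (log2 fold change -3.58 ± 0.15, adjusted p = 1.30e-05), whereas its relative Ihh had 295 and 276 CPM at E16, against 247 and 268 CPM at E14 (adjusted p = 0.444). Fgf9, Wnt11, Wnt7b and Pdgfa, ligands that act on mesenchyme or neighbouring cells, fell (-2.71 ± 0.21, -2.59 ± 0.18, -4.53 ± 0.77 and -1.82 ± 0.20). Fgf9 had 9.8 and 8.88 CPM at E16, against 64.8 and 57.3 CPM at E14. Bmp4, a ligand that gut mesenchyme makes, rose and had 107 and 105 CPM at E16, against 2 and 1.91 CPM at E14 (log2 fold change 5.76 ± 0.68, adjusted p = 0.000649), and the Hedgehog target Gli1, also a mesenchymal gene, had 19.6 and 14.4 CPM at E16, against 0.958 and 0.622 CPM at E14 (log2 fold change 4.42 ± 0.99, adjusted p = 0.0104), a rise not called without any 1 of the 4 libraries but E16 replicate 2 (adjusted p = 0.0506 to 0.0792). In all 6 of 24 members rose and 8 fell, beside the fibroblast markers given above, and 1 to 3 were called higher without any 1 of the 4 libraries. Among all tested genes 20.6% rose and 19% fell, so the share that rose was near background. The list's median log2 fold change was 0.052.

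In the Notch pathway 5 of 16 members rose and 3 fell, the last close to the 19% of all tested genes. The ligand Dll1, made by young secretory cells, had 54.1 and 51.8 CPM at E16, against 0.827 and 0.498 CPM at E14 (log2 fold change 6.31 ± 0.57, adjusted p = 0.000201), and Dll4 rose by 1.42 on the log2 scale. The receptors Notch1 and Notch3 fell (-0.97 ± 0.26 and -1.99 ± 0.18). The Notch target Hes1, a repressor of Atoh1, had 121 and 119.8 CPM at E16, against 327 and 359 CPM at E14 (log2 fold change -1.51 ± 0.15, adjusted p = 0.00035), with little spread within either age. Without any 1 of the 4 libraries 1 to 3 members were called higher. Dll4 was not called without any 1 of the 4 libraries (adjusted p = 0.0501 to 0.11), nor Notch1 without any 1 of the 4 libraries but E14 replicate 2 (adjusted p = 0.0741 to 0.138).

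The crypt stem cell markers Lgr5, Ascl2 and Olfm4 did not pass the test. Lgr5 had 17.7 and 9.56 CPM at E16, against 13.5 and 13 CPM at E14 (log2 fold change 0.043 ± 0.51, adjusted p = 0.962), with 1 E16 library above and 1 below the E14 libraries. Ascl2 had 6.04 and 5.87 CPM at E16, against 4.83 and 5.81 CPM at E14 (adjusted p = 0.816) and Olfm4 had 14.4 and 20 CPM at E16, against 17.5 and 17.3 CPM at E14 (adjusted p = 0.987). Of the 25 stem cell and Wnt target genes 8 rose, 9 fell and 8 did not pass the test, and 5 or 6 were called higher without any 1 of the 4 libraries. For comparison, 20.6% of all tested genes rose and 19% fell.

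Receptors and regulators of Wnt signalling parted. The R-spondin receptor Lgr4 had 118 and 124 CPM at E16, against 488 and 411 CPM at E14 (log2 fold change -1.90 ± 0.14, adjusted p = 9.49e-05), and its E16 level was near that at E11, 113 and 101 CPM. Sox9, a progenitor factor, had 182 and 144 CPM at E16, against 393 and 417 CPM at E14 (log2 fold change -1.31 ± 0.12, adjusted p = 0.000219), and the Wnt restraining ligases Rnf43 and Znrf3 fell (-1.18 ± 0.18 and -1.63 ± 0.27). Nkd1 and Tcf7, also Wnt targets, rose by 2.88 and 1.86. Axin2, the usual readout, had 3.94 and 2.63 CPM at E16, against 2.83 and 2.9 CPM at E14 (adjusted p = 0.808).

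Fetal progenitor genes, some of which return in repairing adult epithelium, had 4 risers and 4 fallers among 15. By comparison, 20.6% of all tested genes rose and 19% fell, so both shares were near background. The median log2 fold change of the list was 0.095. Clu had 27.6 and 20 CPM at E16, against 145 and 154 CPM at E14 (log2 fold change -2.65 ± 0.16, adjusted p = 4.94e-05), and Ly6a, the Sca-1 antigen, had 11.5 and 12 CPM at E16, against 47.5 and 53.2 CPM at E14 (log2 fold change -2.10 ± 0.41, adjusted p = 0.00605). Gja1, a gap junction protein, fell as well (-1.59 ± 0.16). The risers were Cyr61 and Ctgf, targets of YAP, S100a6 and Il33, each of which mesenchymal or blood cells can also express. Il33 was not called without any 1 of the 4 libraries (adjusted p = 0.0522 to 0.0998), nor S100a6 with epithelial scaling (0.052).

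Of 20 oncofetal and imprinted growth genes 10 fell, 4 rose and 6 did not pass the test, with a median log2 fold change of -0.48. The share that rose was close to the 20.6% of all tested genes, and 19% of all tested genes fell. Lin28b, which blocks let-7 maturation, had 1.42 and 0.602 CPM at E16, against 4.7 and 5.72 CPM at E14 (log2 fold change -2.34 ± 0.40, adjusted p = 0.00316), at the end of a series that began at 35.1 and 45.1 CPM at E11 and 18.5 and 18.1 CPM at E12. Hmga2, a let-7 target, had 34.7 and 59.7 CPM at E16, against 252 and 245 CPM at E14 (log2 fold change -2.40 ± 0.25, adjusted p = 0.000377), and the RNA-binding protein Igf2bp1 had 43 and 45.7 CPM at E16, against 158 and 171 CPM at E14 (log2 fold change -1.89 ± 0.098, adjusted p = 2.76e-05). Peg3, an imprinted zinc finger gene, had 68 and 64.1 CPM at E16, against 607 and 488 CPM at E14 (log2 fold change -3.05 ± 0.22, adjusted p = 8.49e-05), and the fetal serum protein Afp fell (-2.57 ± 0.27). The risers Dlk1, Mest, Meg3 and Cdkn1c are imprinted genes, several of them known from fetal mesenchyme too, and Mest had 165 and 134 CPM at E16, against 28.6 and 28.7 CPM at E14.

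**Figure D4:**
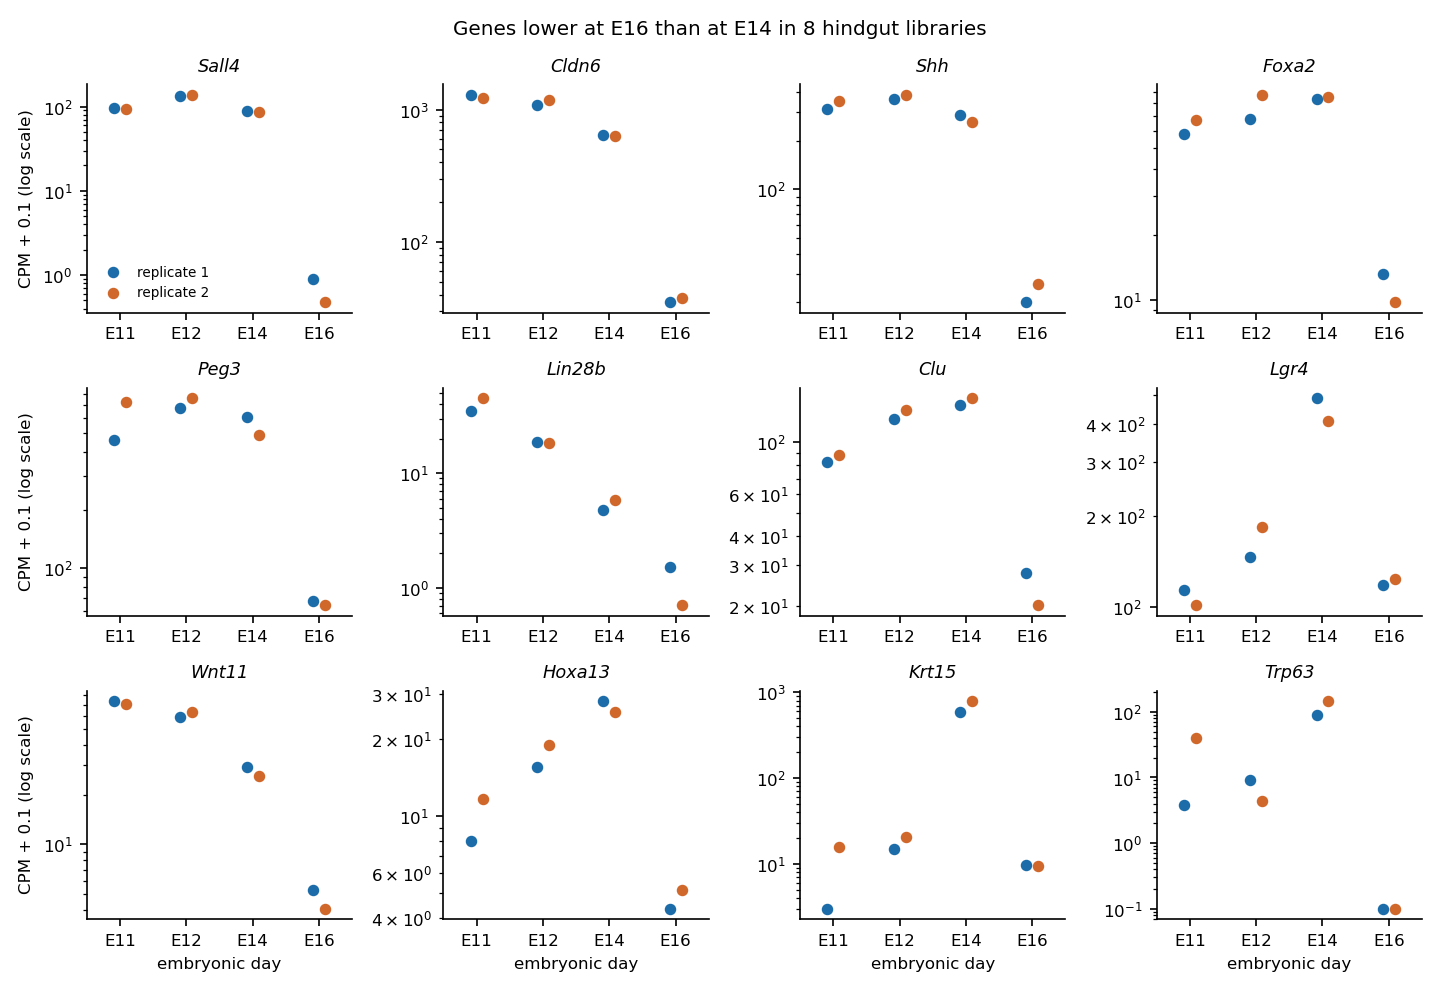
CPM + 0.1 (log scale) of 12 genes that fell between E14 and E16, by embryonic day, with 1 point per library. Sall4, Shh, Foxa2 and Peg3 stay high up to E14 and are low at E16, Lin28b declines at every age, and Krt15 and Trp63 peak at E14 (Krt15 at 597 and 787 CPM).

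Markers of stratified epithelium were highest at E14. Of 8 tested squamous genes 4 fell, none rose and 4 did not pass the test, and 2 were called lower without any 1 of the 4 libraries. Krt15 had 9.67 and 9.25 CPM at E16, against 597 and 787 CPM at E14 (log2 fold change -6.19 ± 0.67, adjusted p = 0.000467), but only 2.89 and 15.5 CPM at E11 and 14.8 and 20.2 CPM at E12. Krt6a fell (-3.53 ± 0.91), and the fall of Krt5 just passed the test (adjusted p = 0.0497). Neither was called without any 1 of the 4 libraries (adjusted p = 0.0795 to 0.215). Sox2, a foregut and squamous factor, had 2.28 and 0.0752 CPM at E16, against 30.8 and 37.7 CPM at E14 (log2 fold change -4.80 ± 0.95, adjusted p = 0.00599), and Upk1a, a urothelial plaque protein, had 42.5 and 49.7 CPM at E16, against 178 and 176 CPM at E14 (log2 fold change -1.94 ± 0.35, adjusted p = 0.00387). The germ cell markers other than Tfap2c stayed at or below 2.05 CPM in all 4 libraries and were not called.

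Replication and mitosis genes fell almost as a whole. Of 27 replication genes 25 fell and none rose, with a median log2 fold change of -0.76. Of 26 mitosis genes 25 also fell and none rose, with a median of -0.99. For comparison 19% of all tested genes fell. The 3 not called were Gins3, Prim1 and Nek2, and their fitted values were also negative.

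The steps were modest. Mcm6, part of the replicative helicase, had 371 and 381 CPM at E16, against 661 and 659 CPM at E14 (log2 fold change -0.81 ± 0.12, adjusted p = 0.00144). Top2a, a topoisomerase of dividing cells, had 153 and 123 CPM at E16, against 390.0 and 404 CPM at E14 (log2 fold change -1.53 ± 0.12, adjusted p = 0.000122), and the mitotic cyclin Ccnb1 had 70.1 and 66 CPM at E16, against 182 and 182 CPM at E14 (log2 fold change -1.42 ± 0.086, adjusted p = 4.54e-05). Mki67, the usual proliferation marker, had 84.2 and 99.6 CPM at E16, against 179 and 156 CPM at E14 (log2 fold change -0.87 ± 0.19, adjusted p = 0.0102), a fall not called without E14 replicate 1 or E16 replicate 1 (adjusted p = 0.0677 to 0.0721). For each of these genes both E16 libraries lay below both E14 libraries.

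**Figure D5:**
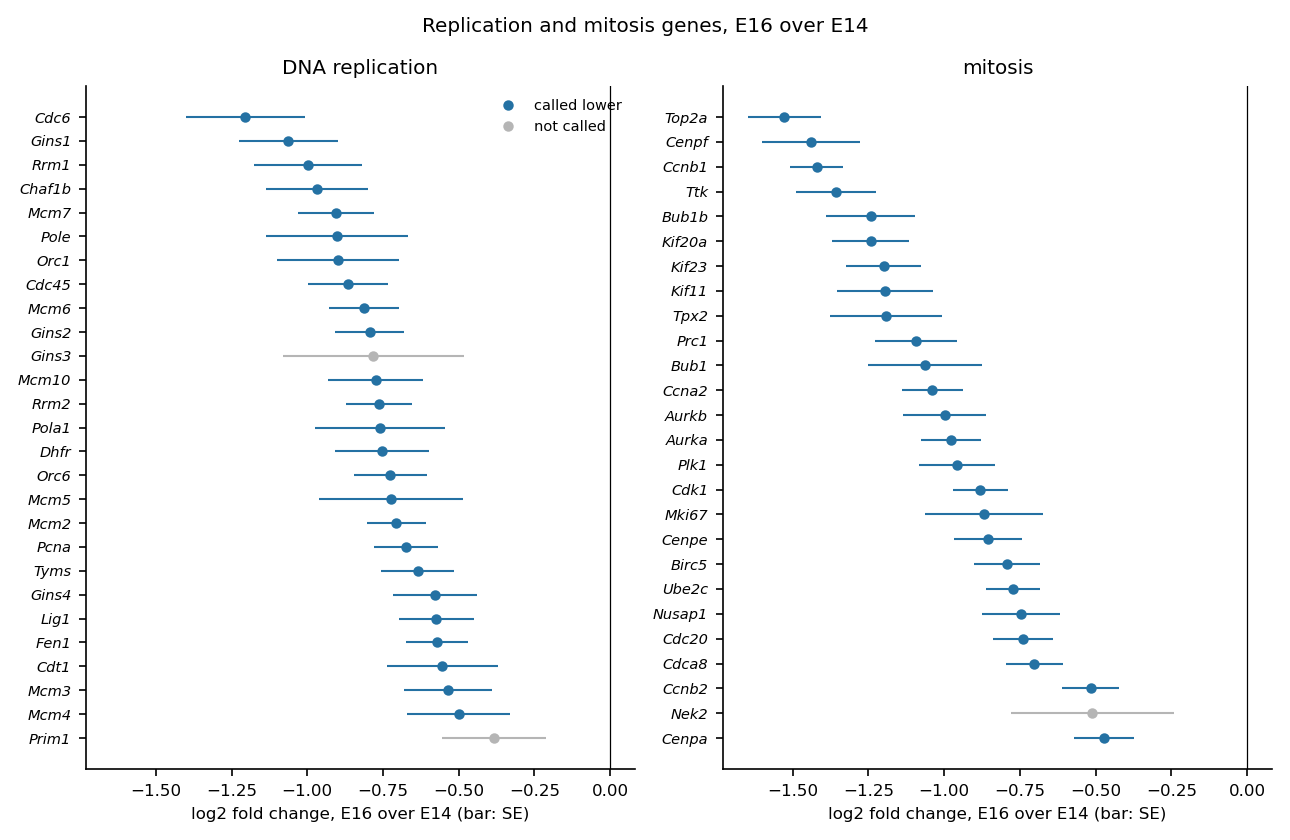
Log2 fold change of E16 over E14 with its SE (x axis) for each DNA replication gene (left) and mitosis gene (right). All points lie below 0; the most negative are Cdc6 (-1.20) among replication genes and Top2a (-1.53) among mitosis genes.

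Of 19 tested cyclins, Cdk inhibitors and related regulators 7 rose, 4 fell and 8 did not pass the test. The share that fell was close to the 19% of all tested genes, and 20.6% of all tested genes rose. The Cdk inhibitors Cdkn1a (p21), Cdkn1c (p57) and Cdkn2d (p19) rose by 1.51, 0.98 and 1.42 on the log2 scale; Cdkn1a had 258 and 256 CPM at E16, against 103 and 77.9 CPM at E14. The pocket proteins Rb1 and Rbl2 also rose (0.97 ± 0.19 and 1.42 ± 0.21), though Rb1 was not called without E14 replicate 1 (adjusted p = 0.0617). Cdk4 had 549 and 573 CPM at E16, against 928 and 935 CPM at E14 (log2 fold change -0.73 ± 0.071, adjusted p = 0.000281), and the cyclins Ccnd1, Ccne1 and Ccne2 fell, while Ccnd3 rose by 1.01. Ccne1 and Ccne2 were not called without any 1 of the 4 libraries (adjusted p = 0.0512 to 0.176), nor Ccne1 with epithelial scaling (0.058). Without 1 of the 4 libraries 2 of the regulators, or 3 without E14 replicate 2, were called lower, and 7 with library size only. Of 20 ribosome biogenesis genes 13 fell and none rose, among them the nucleolar proteins Npm1 (-1.16 ± 0.11) and Ncl (-0.81 ± 0.11). Scaled to epithelial genes in place of TMM, 8 ribosome biogenesis members were called lower, and without 1 E14 or E16 library 4 to 7 were (4 without E14 replicate 1).

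Respiratory chain genes moved slightly the other way. Of 25 oxidative phosphorylation genes 10 rose, none fell and 15 did not pass the test; the median log2 fold change was 0.28. Atp5a1, a subunit of ATP synthase, had 1774 and 1765 CPM at E16, against 1344 and 1332 CPM at E14 (log2 fold change 0.40 ± 0.07, adjusted p = 0.00339). This group depended on scaling: 6 of the 25 were called with library size alone, and the calls were lost when libraries were scaled to epithelial genes. Without 1 library 2 (either E14 library), 7 (E16 replicate 1) or 4 (E16 replicate 2) were called higher.

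Tight junction genes fell more often than they rose. Of 18 members 3 rose, 7 fell and 8 did not pass the test. Over all tested genes 20.6% rose and 19% fell, so the share that rose was below background. Without E16 replicate 1, 1 was called higher, and 2 were without any other 1 of the 4 libraries. Cldn6, a claudin of embryonic epithelia (chromosome 17, 23679348 to 23682446), had 34.9 and 37.5 CPM at E16, against 643 and 634 CPM at E14 (log2 fold change -4.14 ± 0.091, adjusted p = 1.80e-06), while at E11 it had 1290.2 and 1228 CPM. The scaffold Tjp1 fell (-1.31 ± 0.14). The barrier claudin Cldn3 and the colonic claudin Cldn23 rose by 0.82 and 0.79, as did the pore-forming Cldn15 (4.46 ± 1.10). Cldn23 was not called without any 1 of the 4 libraries but E16 replicate 2 (adjusted p = 0.0635 to 0.081), nor Cldn15 without any 1 of the 4 libraries but E14 replicate 2 (adjusted p = 0.0618 to 0.0827). Cldn7 had 1087 and 1116 CPM at E16, against 1013 and 974 CPM at E14, without a call.

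Defence genes rose alongside immune markers. Of 16 tested antimicrobial and mucosal genes 9 rose and none fell, and 5 or 6 were called higher without any 1 of the 4 libraries. Lgals2, a gut lectin, had 198 and 216 CPM at E16, against 14.5 and 13.5 CPM at E14 (log2 fold change 3.89 ± 0.25, adjusted p = 5.68e-05), and Nlrp6, an innate sensor of the gut epithelium, had 36 and 31.8 CPM at E16, against 0.566 and 0.705 CPM at E14 (log2 fold change 5.72 ± 0.91, adjusted p = 0.00237). Reg3b had 31.4 and 35.7 CPM at E16, against 0.131 and 0 CPM at E14, and Lyz1, a lysozyme, had 11.5 and 11.4 CPM at E16, against 0 and 0.0415 CPM at E14. Neither of these was called without any 1 of the 4 libraries (adjusted p = 0.0587 to 0.158), and Ltf was not called by DESeq2 (adjusted p = 0.127). Ltf, which neutrophils also hold in granules, had 95 and 77.5 CPM at E16, against 0.61 and 0 CPM at E14, and Lcn2, another such protein, had 23.7 and 25.8 CPM at E16 and 0 at E14. The neutrophil genes S100a8, S100a9 and Ngp moved with them, as given above. Their part in the rise of Ltf and Lcn2 was not tested.

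Antigen presentation genes were called higher for 15 of 22 and lower for none. The MHC class I gene H2-D1 had 235 and 247 CPM at E16, against 25.5 and 26 CPM at E14 (log2 fold change 3.23 ± 0.20, adjusted p = 4.98e-05) and B2m had 358 and 454 CPM at E16, against 111 and 103 CPM at E14 (log2 fold change 1.92 ± 0.20, adjusted p = 0.0004). The class II partner Cd74 had 461 and 459.7 CPM at E16, against 0.261 and 0.207 CPM at E14, and the class II gene H2-Ab1 had 174 and 171 CPM at E16, against 1.57 and 2.9 CPM at E14. Ptprc, the common leukocyte antigen, had 95.1 and 117 CPM at E16, against 2 and 1.66 CPM at E14. Among interferon response genes Ifit1 had 3.88 and 3.99 CPM at E16, against 0.566 and 0.912 CPM at E14 (adjusted p = 0.261).

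Immediate-early and heat shock genes were called higher at E16 for 16 of 17 members. Cells switch immediate-early genes on within minutes of a stimulus, including tissue dissociation. Atf3 had 1187 and 1111 CPM at E16, against 37.9 and 31.8 CPM at E14 (log2 fold change 5.04 ± 0.35, adjusted p = 6.92e-05), Nr4a1 had 1591 and 1382 CPM at E16, against 39.4 and 47.2 CPM at E14 (log2 fold change 5.10 ± 0.40, adjusted p = 0.00011), and Jun had 2055 and 1782 CPM at E16, against 602 and 505 CPM at E14 (log2 fold change 1.79 ± 0.13, adjusted p = 7.38e-05). Fos had 4139 and 4034 CPM at E16, against 801 and 762 CPM at E14 (log2 fold change 2.39 ± 0.63, adjusted p = 0.0193), after 35.4 and 5.36 CPM at E11 and 269 and 294 CPM at E12, and it was not called without any 1 of the 4 libraries (adjusted p = 0.0657 to 0.109). Egr2 did not pass the test (adjusted p = 0.0942), but was called with only the 4 libraries of E14 and E16 (1.84e-05) and without either E11 library (0.0003 and 0.000282). Both E16 libraries exceeded both E14 libraries for every gene named here.

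The change from E14 to E16 was also set against that from E11 to E12, the one other pair of ages that shares no library with it. The first spans 2 days and the second 1 day. Between E12 and E11, 434 genes were called (2.63% of those tested). E14 against E12, which also spans 2 days but shares the E14 libraries, gave 4672 genes called (28.3%). The change of E16 over E14 differed from that of E12 over E11 for 4302 genes (26.1%), with the difference positive for 1964 (11.9%) and negative for 2338 (14.2%). Ngp and S100a9, at 0 in the E11, E12 and E14 libraries, were not called by this test (adjusted p = 0.99993 for each). The positive count therefore leaves out some genes that rose strongly at E16.

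Named genes show the difference. Top2a gave -1.53 on the log2 scale for E16 over E14, whereas E12 over E11 gave 0.27 (adjusted p = 0.258), a difference of -1.79 (adjusted p = 0.000575). For Sall4 the E12 over E11 value was 0.52, and the difference was -7.67 (adjusted p = 2.43e-05). For Tff3 it was 0.20, with a difference of 7.34 (adjusted p = 2.43e-05). Hoxb13 moved in opposite directions, with 4.02 for E12 over E11 (adjusted p = 0.0311) and -1.97 for E16 over E14, a difference of -5.99 (adjusted p = 0.00365). Epcam did not pass this test: -0.36 (adjusted p = 0.17).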

How the data were processed

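RNA-seq of Epcam-sorted hindgut cells was analysed from the deposited table of whole-number read counts per gene. Per the labels' protocols, RNA was amplified with a SMARTer v4 ultra-low-input kit and sequenced as single-end reads. Per the submitters' processing notes, STAR 2.5.3a, HTSeq and DESeq2 were used with GRCm38; the annotation release, strand setting and roles of the tools are not given in the sources used here. Reads of a gene and its antisense or overlapping partner therefore cannot be told apart. The 5 summary rows of the table that name no gene were left out: ambiguous reads made up 3.09% and 3.5% at E16, against 0.812% and 0.833% at E14. Another 7 columns, from adult samples, were not used.

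edgeR 4.0.16 in R 4.3.3 was run on the counts of 8 libraries, with filterByExpr, TMM scaling, a mean per age and the quasi-likelihood F test of E16 minus E14. P-values were adjusted by Benjamini-Hochberg over 16481 genes, and genes were called at 0.05. Errors of fold changes are approximate SE, the absolute log2 fold change divided by the square root of the F statistic. There were n = 2 libraries per age throughout. Where an age had no counts for a gene, its fold was bounded at 3 counts over both libraries, and with 1 to 3 counts the ratio is given with its 95% interval, which covers counting error only. Coordinates come from RefSeq GRCm38.p6, which matched 23902 genes (99.3%) by symbol or, failing that, by a synonym listed only once. In simulated counts for 16481 genes, 100 well-counted genes were changed 2-fold and 100 were changed 4-fold. Of these, 34% and 73% were called, and 6.96% of calls were unchanged genes. Far fewer genes changed there than were called between E16 and E14, so these shares need not hold for this comparison.

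The text names the 12 largest rises and 12 largest falls among called genes, and members of 41 gene lists. These rises and falls had to have a mean of 10 CPM or more in the higher age and no overlap between the ages. The comparison, lists and members were chosen with earlier results of these data known, and genes named beyond the rule were chosen after their values were seen. Muc3, Ms4a12 and Sh2d6 were not matched. Some list members are counted but not reported here by name. Alternatives were another scaling (RLE, library size, epithelial genes), other filters, DESeq2 1.42.0, fewer libraries, thinned counts and a replicate block.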

Additional observations from a re-analysis of the deposited data

Results flagged for a closer look

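The change of E16 over E14 differed from that of E12 over E11 for 4302 genes by edgeR's test of the difference itself. The steps between these ages were thus called unequal for 26.1% of tested genes. Some genes at 0 in the E11, E12 and E14 libraries, such as Ngp, were not called by this test.

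Reads that fell on more than 1 annotated gene, which the count table sets aside as ambiguous, were 3.09% in E16 replicate 1 and 3.5% in E16 replicate 2, against 0.812% and 0.833% in the E14 libraries. The E11 and E12 libraries lay between 0.843% and 0.866%. These reads belong to no gene of the comparison, and their part in it was not tested.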

How the results depend on the processing

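The number of genes called between E16 and E14 was 6530, and it lay between 5531 and 9100 under the other scalings, filters and tests: 6317 with RLE scaling, 6776 with library size only, 7936 with DESeq2, 9100 with only the 4 libraries of E14 and E16, and 5531 with libraries scaled to epithelial genes, an alternative chosen after seeing the data. No gene called under both changed sign in these settings. Leaving out 1 library gave between 3468 and 7888 genes called, 1720 to 3921 higher, 1748 to 3967 lower, and 2149 to 5033 for the difference between steps; a lone library of an age was assumed to vary like the other ages. The difference between steps was called for 2849 genes with epithelial scaling and for 6204 with DESeq2. Among called genes the share that rose was 52%, against 58% with RLE and 45.9% with library size only; the median of all genes moved to 0.08 with RLE and to -0.094 with epithelial scaling. Replicate numbers did not pair the libraries. Deviations from each age's mean log2 CPM had correlations of -0.067 to 0.037 between same-numbered libraries of different ages. With the replicate block 5696 genes were called, 5618 of them shared with the 6530. Of the genes named, Hoxb7, Ddc and Ltc4s were not called with the block (adjusted p = 0.0501, 0.0541 and 0.0711). With only the 4 libraries of E14 and E16, Epcam, Ern1, Ang4, Aqp8, Pcsk2, Ifit1 and Gins3 were also called (adjusted p = 0.00508 to 0.0387), and the members called higher were 14 of the intestinal factors, 17 of the ion and water transport genes, 10 of the hydrolases, 21 of the lipid genes, 11 of the cycle regulators and 5 of the tight junction genes; 1 colonocyte gene and 2 nutrient transporters were called lower. In that 4-library setting 3 hydrolases, 5 xenobiotic and retinoid genes and 2 mucin glycosylation genes were called lower as well. So were 4 foregut, liver and pancreas markers, 2 urogenital markers and 1 enteric neural marker. DESeq2 and library size only each called 3 hydrolases lower too. Some values of uncalled genes near 0 changed sign. Olfm4 gave 0.062 with RLE or DESeq2, 0.026 with thinned counts and -0.28 to 0.20 without 1 library. Muc1 gave 0.058 with RLE or DESeq2, 0.026 with thinned counts and -0.17 to 0.11 without 1 library. Lgr5 gave -0.037 with library size only, -0.0054 with no filter, -0.061 with epithelial scaling and -0.48 to 0.42 without 1 library. Pou2f3 gave 0.20 with thinned counts and -6.58 to 0.76 without 1 library. Without 1 library the ranges were -0.73 to 0.16 for Cdx2, -0.13 to 0.46 for Axin2 and -0.0396 to 1.18 for Sst. List medians that turned were those of posterior Hox genes (-0.53 to 0.0094 without 1 library), urogenital markers (-0.80 to 0.65 without 1 library) and fetal progenitor genes (-0.016 with epithelial scaling). The causes were not tested. Genes with few counts at E14 are limited by depth.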

Other observations

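Of 5 mesothelial markers Upk3b rose and Msln fell; Msln had 26 and 29.1 CPM at E16, against 85.3 and 90.3 CPM at E14 (log2 fold change -1.67 ± 0.38, adjusted p = 0.0107). Msln was not called without any 1 of the 4 libraries but E14 replicate 1 (adjusted p = 0.0563 to 0.0729), nor Upk3b without any 1 of the 4 libraries but E16 replicate 1 (adjusted p = 0.0616 to 0.0767). Of 8 urogenital markers Gata3 rose, Upk1a fell and 6 did not pass the test. Gata3 was not called without E14 replicate 1 or E16 replicate 2 (adjusted p = 0.0694 to 0.128) or with epithelial scaling (0.0881). Over all tested genes 20.6% rose and 19% fell, so 1 member each way in lists of 5 and 8 is close to that background or below it. Of 7 tested foregut, liver and pancreas markers none rose and 2 fell, Sox2 and the liver protease inhibitor Serpina1a, which had 2.03 and 2.33 CPM at E16, against 16.7 and 17 CPM at E14 (log2 fold change -2.95 ± 0.55, adjusted p = 0.00489).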
